A study of Mus musculus with 7 samples.

Results

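The protein-coding genes Tmem267, Ikzf5, Nbas, Bmf, Lpo and Best1, are described here across cerebella of mouse pups that carry 1 knockout allele of L3mbtl3 and their wild-type counterparts. These 6 genes were picked from these same libraries because their level in every heterozygous library lay below their level in every wild-type library. That pattern was met by 302 of the 16813 genes tested (1.8%), out of 55450 genes in the files. Levels and differences between genotypes are therefore given as a description of the libraries and carry no test.

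Polyadenylated RNA was sequenced from cerebella of C57BL/6 mice at postnatal day 15 (P15), as 4 libraries from L3mbtl3 KO/+ pups (KO/+) and 3 from wild-type pups (WT). The labels give no treatment, litter or sex, and they do not say which part of L3mbtl3 the knockout allele lacks. Library depth ran from 29248360 to 43761792 expected counts over all genes. The spread between libraries of a genotype may be partly technical, since the labels do not say for WT that each cerebellum came from its own mouse.

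The 6 genes are known for unrelated functions. L3mbtl3 itself encodes a chromatin reader with MBT domains and is a known partner of RBPJ, the transcription factor of Notch signalling. Tmem267 encodes a little-studied transmembrane protein. Ikzf5, also called Pegasus, is a zinc finger transcription factor of the Ikaros family. Nbas is a subunit of the NRZ tethering complex, which captures vesicles returning from the Golgi to the endoplasmic reticulum, and also acts in nonsense-mediated decay, the destruction of transcripts with early stop codons. Bmf is a BH3-only protein of the BCL-2 family that promotes apoptosis by binding survival proteins. Lpo encodes lactoperoxidase, a secreted haem peroxidase best known from milk and saliva. Best1 encodes bestrophin-1, a calcium-activated anion channel best known from the retinal pigment epithelium.

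Libraries differed from each other in ways that did not follow genotype. L3mbtl3, the targeted gene, was read at 19.7, 17.4, 22.3 and 23.0 CPM (counts scaled to a common library size by TMM) in KO/+, against 22.6, 26.8 and 23.2 CPM in WT. The KO/+ mean was 85.2% of the WT mean (log2 fold change -0.23, SE 0.12). The genotypes overlapped because KO/+ 4 lay above WT 1. Since the deleted part is not given, this level does not check the genotype labels. Markers of cerebellar neurons and glia were detected, and none of the 66 markers in 11 cell type lists was at 0 in all libraries. The summed level of 8 cell cycle markers was 209, 189, 425 and 477 CPM in KO/+ and 522, 548 and 186 CPM in WT. The summed level of 6 choroid plexus markers was 1410, 1010, 707 and 41.7 CPM in KO/+ and 34.0, 1010 and 36.8 CPM in WT. Of the 11 lists, only the 6 oligodendrocyte precursor markers did not overlap in sum, at 215, 265, 323 and 305 CPM in KO/+ and 359, 328 and 417 CPM in WT. All 6 of those markers and all 8 cell cycle markers had a negative fold change, against 51.2% of all genes tested. The summed cell cycle markers overlapped between genotypes. Of the mature granule neuron, choroid plexus and red blood cell markers, 0 of 6, 0 of 6 and 0 of 5 had a negative fold change. The sign of the 6 genes was fixed by their choice, so no likeness to any list is read from it. The part of any of these lists in the differences below was not tested. In whole tissue, fewer cells of a type and less RNA per cell cannot be told apart. Xist and Y-linked reads marked 1 KO/+ library (KO/+ 1) and 2 WT libraries (WT 1 and WT 3) as female.

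No gene was called between genotypes by edgeR's quasi-likelihood test with Benjamini-Hochberg adjustment (0 of 16813 genes, 0.0%, at an adjusted p under 0.05). At an unadjusted p under 0.05, edgeR gave 530 genes (3.15%). DESeq2 called 0 genes, with 597 at that unadjusted level, and limma-voom called 0 genes, with 497. Non-overlap in the direction of the 6 genes was met by 1.8% of the genes tested, and non-overlap in the opposite direction by 363 genes (2.16%). The 6 genes were chosen for that non-overlap, so nothing is read from their number. At the edge of the rule, the genes just inside it were Dis3l, B930059L03Rik and Bbs9, with a lowest WT level 1.0002, 1.0005 and 1.0007 times the highest KO/+ level. The genes just outside were Polr3a, Usp33 and Acan, at 0.9999, 0.9998 and 0.9995 times.

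**Figure D1:**
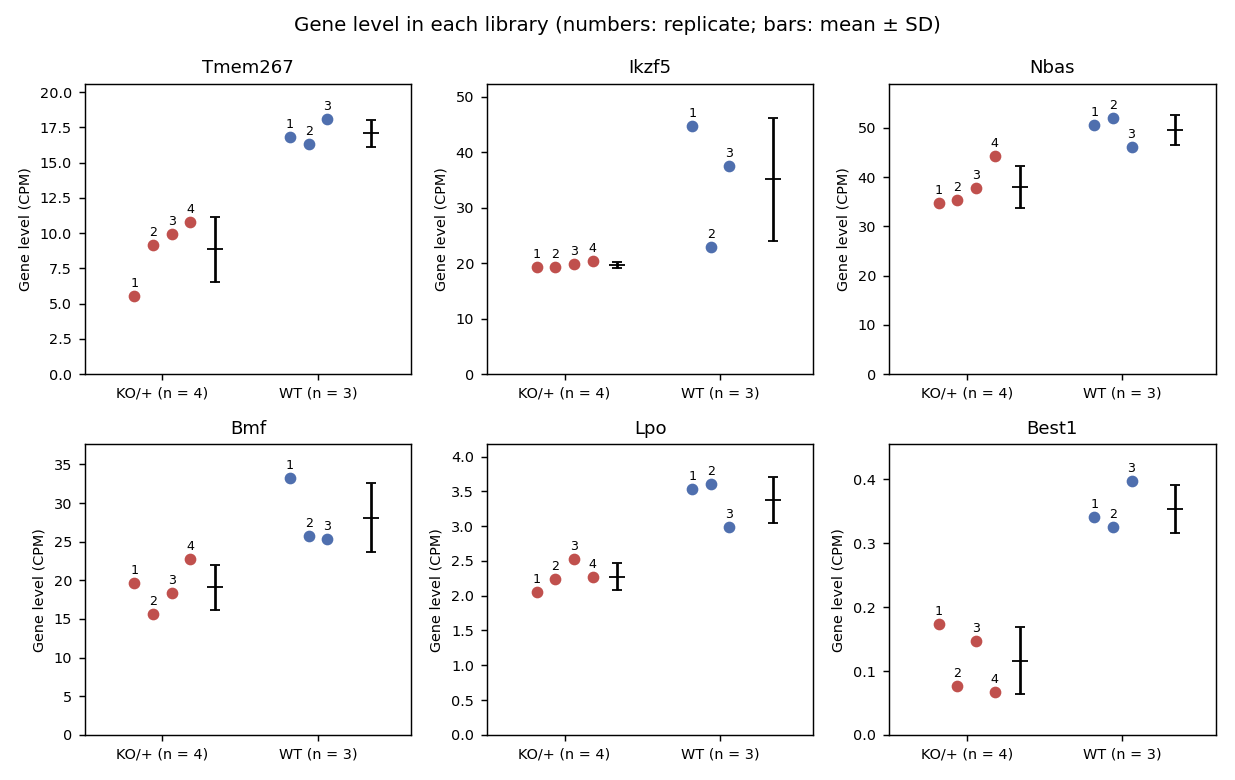
Gene level in CPM (vertical axes, from 0) of the 6 genes, with 1 point per library, KO/+ on the left and WT on the right; the bar beside each group is the mean with its SD. Tmem267 has the widest gap between the groups among genes of at least 1 CPM, and WT 2 lies close to the KO/+ libraries for Ikzf5.

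Tmem267 showed the widest gap between genotypes among the 5 genes of at least 1 CPM. It was read at 5.56, 9.16, 9.92 and 10.8 CPM in KO/+, against 16.8, 16.3 and 18.1 CPM in WT. KO/+ 1 was the lowest library by a margin, and the WT libraries lay close together. The mean was 8.87 ± 2.31 CPM in KO/+ (SD, n = 4) and 17.1 ± 0.934 CPM in WT (SD, n = 3), or 52.0% of WT. The fitted log2 fold change was -0.95 (SE 0.21, 95% interval -1.42 to -0.47). The lowest WT library was 1.51 times the highest KO/+ library, the largest such ratio among the 261 genes of at least 1 mean CPM that met the rule. The next was Gal3st4, at 1.21.

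Tmem267 lies at chr13:119488039-119611059 on the plus strand of GRCm38 and has 5 annotated transcripts, of which 2 carried most of the drop. Tmem267-204 is a protein-coding transcript with 2 exons that begins inside the gene, at position 119606650. It was estimated at 4.03, 6.55, 7.07 and 8.30 TPM (the transcript's share of all transcripts, corrected for length) in KO/+ and 13.31, 13.13 and 12.48 TPM in WT, and its reads made up 65.4% of the drop in the gene's CPM. Tmem267-201, the protein-coding transcript with 4 exons, was at 2.65, 5.80, 6.64 and 8.88 TPM in KO/+ and 11.37, 11.96 and 13.28 TPM in WT, and made up 27.3%. Neither transcript overlapped between genotypes, and the fitted log2 fold changes were alike, at -0.96 (SE 0.20) for Tmem267-204 and -1.0 (SE 0.33) for Tmem267-201.

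The balance between the main Tmem267 transcripts was about the same in both genotypes. Tmem267-204 was 49.7 ± 4.18% of the gene's transcripts in KO/+ and 49.2 ± 4.02% in WT, and Tmem267-201 was 43.7 ± 5.62% in KO/+ and 46.1 ± 1.5% in WT (SD, n = 4 and 3). Tmem267-205 was spread differently, at 0.37, 0.62, 0.90 and 0.33 TPM in KO/+ and 0, 0.44 and 2.01 TPM in WT, and it overlapped. Its log2 fold change of -0.52 (SE 1.09) was 1.44 without WT 3, the library with the largest share of its reads. The split between these transcripts is RSEM's estimate. No stretch of 50 bases belongs to Tmem267-204 or Tmem267-205 alone, whereas 18.0% of the 50-base windows of Tmem267-201 do. Tmem267-201 can be told from the others by 2 splice junctions of its own, shown here because reads across them can come from no other annotated Tmem267 transcript. They are printed from the GENCODE M21 transcripts, 5′ to 3′, with the downstream exon in capitals, and join chr13:119488994-119492634 and chr13:119495505-119610437.
Tmem267-201 exon 1 to 2: ctgacgtgaaaagagGATGCAGGGGATGAG
Tmem267-201 exon 3 to 4: taagagaaggaattcAAAATAAAGTCGTTT

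Ikzf5 was the steadiest of the 6 genes in KO/+ and among the most variable in WT. Its level was 19.3, 19.3, 19.9 and 20.4 CPM in KO/+, against 44.8, 22.9 and 37.6 CPM in WT. WT 2 stood just above the KO/+ libraries, and WT 1 and WT 3 stood far above them. The mean was 19.7 ± 0.514 CPM in KO/+ (SD, n = 4) and 35.1 ± 11.1 CPM in WT (SD, n = 3), or 56.1% of WT, with a fitted log2 fold change of -0.83 (SE 0.19, 95% interval -1.28 to -0.39). The lowest WT library was 1.13 times the highest KO/+ library. The log2 fold change was -1.07 without WT 2 and -0.63 without WT 1. WT 1 and WT 3 are the WT libraries with female reads, while KO/+ 1, the KO/+ library with female reads, was at 19.3 CPM. With inferred sex as a covariate the log2 fold change was -0.63.

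In RSEM's split of reads, a single coding transcript of Ikzf5 held nearly the whole difference. Ikzf5-201 was estimated at 6.23, 6.45, 7.02 and 7.28 TPM in KO/+ and 15.76, 8.35 and 13.31 TPM in WT, and made up 96.0% of the drop in CPM. Ikzf5-207, a retained-intron transcript within the same gene, was at 0.51, 0.29, 0.78 and 0.64 TPM in KO/+ and 1.14, 0.55 and 0.96 TPM in WT. That transcript overlapped between genotypes, with WT 2 below 2 of the KO/+ libraries, and it was 6.67 ± 1.67% of the gene's transcripts in KO/+ and 6.14 ± 0.119% in WT. None of the other 5 transcripts reached a mean of 0.5 TPM over the 7 libraries.

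The level of Ikzf5 moved between WT libraries together with its neighbours on chromosome 7. Ikzf5 lies at chr7:131388652-131410521 on the minus strand of GRCm38. Its 3′ part faces and overlaps Pstk, the kinase that acts on selenocysteine tRNA, and Acadsb, an acyl-CoA dehydrogenase of isoleucine breakdown, begins just beyond its 5′ end on the opposite strand. Pstk was at 7.35, 6.74, 6.10 and 5.34 CPM in KO/+ and 11.7, 6.17 and 13.8 CPM in WT. Acadsb was at 35.2, 39.8, 35.4 and 28.4 CPM in KO/+ and 58.4, 28.5 and 68.2 CPM in WT. The next gene before Pstk, 2310057M21Rik, was at 12.4, 11.6, 11.0 and 12.3 CPM in KO/+ and 25.4, 11.5 and 23.4 CPM in WT. In all 3 of these neighbours WT 2 fell within the range of KO/+, while WT 1 and WT 3 were higher than every KO/+ library.

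These 4 genes follow each other without a gap among tested genes of at least 1 CPM and cover 110.7 kb, chr7:131338220-131448944. WT 1 was 1.90 to 2.20 times WT 2 across the 4 genes, and WT 3 was 1.64 to 2.40 times WT 2. Over the other 10 such genes within 1 Mb, WT 1 was 0.900 to 1.25 times WT 2. WT 3 was 0.796 to 2.45 times WT 2 over those 10 genes, with the top of that range set by Gpr26, which also varied 2.41-fold within KO/+. The run was picked out after its values were seen. Neither adjacent gene was called, and the fitted log2 fold changes were -0.73 for Pstk (SE 0.26, edgeR adjusted p = 0.957) and -0.57 for Acadsb (SE 0.26, edgeR adjusted p = 0.957). Without WT 3 the value for Acadsb was -0.32, and without WT 2 it was -0.88. With inferred sex as a covariate, the values were -0.39 for Pstk and -0.26 for Acadsb. KO/+ 1, the KO/+ library with female reads, was at 7.35 CPM for Pstk and 35.2 CPM for Acadsb.

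**Figure D2:**
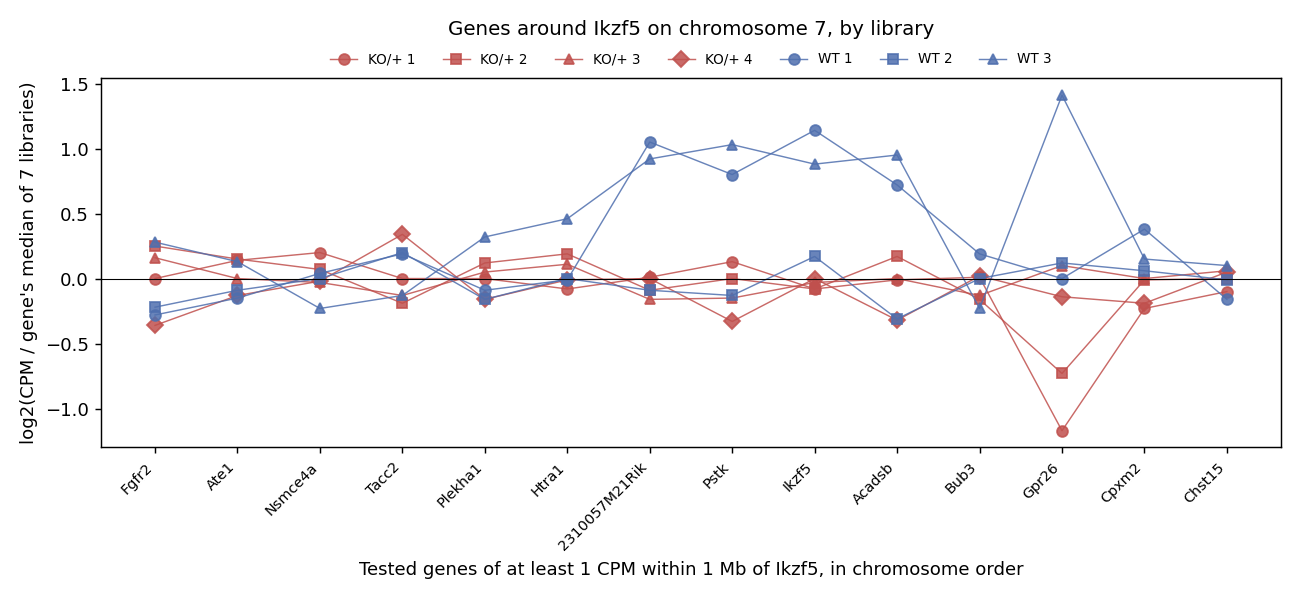
Level of each gene in each library relative to the gene's median over the 7 libraries (vertical axis, log2), for 14 tested genes of at least 1 CPM within 1 Mb of Ikzf5 in chromosome order (horizontal axis); KO/+ libraries are red and WT libraries blue, with lines joining the values of a library. WT 1 and WT 3 lie above the other libraries over 2310057M21Rik, Pstk, Ikzf5 and Acadsb, and WT 2 stays near the KO/+ libraries.

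The sequence shown here is the whole stretch between Ikzf5 and Acadsb, because the genes on both of its sides differed between libraries in the same way. It is 79 bases long, at chr7:131410522-131410600, and is printed on the minus strand, reading towards Ikzf5, from the RefSeq promoter table of GRCm38.p6. Its GC content is 60.8%.
Ikzf5 to Acadsb: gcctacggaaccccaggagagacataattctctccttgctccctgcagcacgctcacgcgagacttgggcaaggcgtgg

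Reads of Ikzf5 are less certain to be its own than those of the other 5 genes. Of its 50-base windows, 78.33% also occur in antisense direction in Pstk transcripts, and the library kit was directional but the strand setting of the quantification is not given in the sources used here. In the same direction, 12.89% of its windows occur in Gm10356, and the overlap between these shares was not counted. The ratio of Ikzf5 to Pstk was 2.62, 2.87, 3.26 and 3.81 in KO/+ and 3.82, 3.71 and 2.73 in WT. Whether some reads of Pstk were counted for Ikzf5 was not tested, and this ratio cannot tell. The 3′ end that only Ikzf5-201 covers, from chr7:131388652 to the end of Ikzf5-202 at 131390368, lies within the Pstk gene. How far the split between Ikzf5 transcripts rests on that part was not tested. In GENCODE M21, Fgfr2 is annotated across the whole Ikzf5 region on the same strand. For Nbas, Bmf and Lpo no 50-base window was shared with another gene, for Best1 0.16% were, and for Tmem267 0.13% in the same direction and 4.25% in antisense.

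Nbas differed least. It was read at 34.7, 35.3, 37.8 and 44.2 CPM in KO/+, against 50.5, 52.1 and 46.1 CPM in WT. KO/+ 4 came close to WT 3, and the lowest WT library was 1.04 times the highest KO/+ library. The mean was 38.0 ± 4.33 CPM in KO/+ (SD, n = 4) and 49.6 ± 3.08 CPM in WT (SD, n = 3), or 76.6% of WT, with a fitted log2 fold change of -0.38 (SE 0.10, 95% interval -0.61 to -0.15).

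The full-length transcript and a shorter 3′ transcript of Nbas moved together. Nbas lies at chr12:13269133-13583811 on the plus strand of GRCm38. Nbas-201, which encodes the full protein, was at 5.61, 6.00, 6.98 and 8.08 TPM in KO/+ and 9.03, 9.78 and 8.38 TPM in WT, and made up 84.8% of the drop in CPM. Nbas-203, a processed transcript with 9 exons over the 3′ part, was at 6.45, 5.88, 7.0 and 8.45 TPM in KO/+ and 9.40, 9.26 and 8.19 TPM in WT, and made up 14.3%. Nbas-201 did not overlap between genotypes, whereas Nbas-203 did, with KO/+ 4 above WT 3.

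Each of these Nbas transcripts was about the same share of the gene in both genotypes. Nbas-201 was 48.0 ± 1.69% in KO/+ and 49.0 ± 0.981% in WT, and Nbas-203 was 50.1 ± 1.83% in KO/+ and 48.4 ± 1.54% in WT (SD, n = 4 and 3). The fitted log2 fold changes were -0.39 (SE 0.10) for Nbas-201 and -0.31 (SE 0.13) for Nbas-203. Only 0.8% of the 50-base windows of Nbas-203 are its own, so its level rests on RSEM's split of shared reads. Nbas-201 has 44 splice junctions of its own, against 0 for Nbas-203. The first of them, from exon 1 to 2 at chr12:13269264-13271164, is shown because it marks the full-length transcript, with the downstream exon in capitals.
Nbas-201 exon 1 to 2: gagacagaagtgcagCTCAGAGGCAACCGA

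Partners of Nbas had small fold changes, mostly of the other sign, and none was called. Of 7 genes of the NRZ complex and its SNAREs, 1 had a negative and 6 a positive log2 fold change, the median was 0.08, and 0 were called by edgeR. Scfd1, an SM protein of the ER fusion step, was at 55.5, 54.6, 50.8 and 43.3 CPM in KO/+ and 43.0, 43.7 and 49.5 CPM in WT (log2 fold change 0.17, SE 0.10). Use1 and Sec22b, SNAREs of the same step, had log2 fold changes of 0.16 and 0.08. All 3 overlapped between genotypes. Bnip1 and Stx18, also counted as positive, were at 0.01 (SE 0.09) and 0.02 (SE 0.07). Of all genes tested, 51.2% had a negative log2 fold change.

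Of 11 nonsense-mediated decay factors, 8 were negative and 3 positive, with a median of -0.03 and 0 called. Upf3a, a cofactor of the pathway, was at 55.8, 52.0, 50.0 and 52.0 CPM in KO/+ and 49.2, 45.4 and 42.6 CPM in WT, with a log2 fold change of 0.20 (SE 0.08). It is 1 of 2 factors in the list whose groups did not overlap, both with the higher level in KO/+. The other, its paralog Upf3b, was at 41.3, 39.4, 36.5 and 36.5 CPM in KO/+ and 35.6, 36.4 and 35.3 CPM in WT. The kinase gene Smg1 had a log2 fold change of -0.17 and overlapped. Over all genes tested, 51.2% of log2 fold changes were negative and the median was 0.

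Bmf was read at 19.6, 15.7, 18.4 and 22.7 CPM in KO/+, against 33.3, 25.7 and 25.4 CPM in WT. KO/+ 4 was the highest KO/+ library and WT 1 stood above the other WT libraries. The mean was 19.1 ± 2.88 CPM in KO/+ (SD, n = 4) and 28.1 ± 4.49 CPM in WT (SD, n = 3), or 67.9% of WT, with a fitted log2 fold change of -0.56 (SE 0.15, 95% interval -0.90 to -0.22). The lowest WT library was 1.12 times the highest KO/+ library. Without WT 1 the log2 fold change was -0.43.

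A single one of the 8 annotated Bmf transcripts held 99.2% of the gene's reads in KO/+ and 99.5% in WT. This transcript, Bmf-201, was at 6.26, 5.14, 6.55 and 8.14 TPM in KO/+ and 11.66, 9.29 and 8.88 TPM in WT, and carried 100.1% of the drop, because transcripts with few reads lay slightly the other way. Bmf lies at chr2:118528757-118549687 on the minus strand of GRCm38. A splice junction that only Bmf-201 has, from exon 2 to 3 at chr2:118547012-118549041, is shown with the downstream exon in capitals.
Bmf-201 exon 2 to 3: cctggagtcacccagGAGAGATGGAGCCAC

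Since L3mbtl3 is known to bind RBPJ, the RefSeq promoters of the 6 genes were searched for the RBPJ core TGGGAA on both strands, over the 250 bases before each start. The core was found in 1 of the 9 promoter windows of the 6 genes, and in 21.6% of the 32851 mouse promoter windows of that length. The window that held it lies at chr2:118544588-118544837 inside Bmf, before the start of Bmf-205, with matches 146 and 37 bases before that start. Bmf-205 had 0 reads in every library but WT 1, where it had 1.76. The window before the start of Bmf-201, at chr2:118549687-118549936, held no match, and nothing about RBPJ follows from the letters alone. The window with the core is printed from GRCm38.p6 on the minus strand, with the matches in capitals.
Bmf-205 promoter: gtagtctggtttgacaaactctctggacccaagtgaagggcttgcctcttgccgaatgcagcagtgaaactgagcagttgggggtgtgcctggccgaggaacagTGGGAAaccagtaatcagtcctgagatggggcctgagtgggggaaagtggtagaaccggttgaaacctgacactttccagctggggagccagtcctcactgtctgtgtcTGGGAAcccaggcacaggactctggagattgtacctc

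Other genes of the BCL-2 family had fold changes of both signs, most of them positive. Of 13 other members tested, 3 had a negative and 10 a positive log2 fold change, with a median of 0.04 and 0 called by edgeR. Bbc3, which encodes the BH3-only protein PUMA, was at 19.4, 17.8, 15.4 and 15.3 CPM in KO/+ and 13.9, 14.0 and 15.0 CPM in WT. Its groups did not overlap, with the higher level in KO/+ and a log2 fold change of 0.25 (SE 0.11). Bad, another BH3-only gene, and the survival gene Bcl2l2 had log2 fold changes of 0.11 and 0.20, and both overlapped. Bik was not tested because of low counts.

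Lpo was scarce. It had 71, 87, 86 and 67 counts in KO/+, against 135, 133 and 128 in WT, which is 2.06, 2.24, 2.53 and 2.27 CPM in KO/+ and 3.54, 3.60 and 2.99 CPM in WT. The levels within each genotype lay close together, and KO/+ 3 was nearest to WT 3. The mean was 2.27 ± 0.197 CPM in KO/+ (SD, n = 4) and 3.38 ± 0.337 CPM in WT (SD, n = 3), or 67.3% of WT. The fitted log2 fold change was -0.57 (SE 0.16, 95% interval -0.93 to -0.21), and the lowest WT library was 1.18 times the highest KO/+ library. Exact binomial intervals at 95% were taken before TMM scaling and for counting error only. They were 2.07 to 3.19 CPM in KO/+ 3 and 2.44 to 3.48 CPM in WT 3. These libraries cannot be separated by their counts.

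The drop of Lpo lay in the full-length coding transcript. Lpo is at chr11:87806428-87828289 on the minus strand of GRCm38, with 3 annotated transcripts. Lpo-201 was at 1.06, 1.17, 1.52 and 1.29 TPM in KO/+ and 2.03, 2.04 and 1.69 TPM in WT, and made up 94.2% of the drop. Lpo-202, a coding transcript with another first exon, was at 0.55, 0.50, 0 and 0.44 TPM in KO/+ and 0.65, 1.36 and 0.72 TPM in WT, from at most 7.26 reads, and made up 6.9%. Neither overlapped between genotypes. The junctions into exon 2 differ only in the exon before it, and are shown, at chr11:87822276-87825742 and chr11:87822276-87828159, because they tell these coding transcripts apart.
Lpo-201 exon 1 to 2: caaggcacactgcagTGATGAAAGTGCTTC
Lpo-202 exon 1 to 2: cacctgccaaagggcTGATGAAAGTGCTTC

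The deposited gene TPM of Lpo did not show the drop. It was 1.61, 4.96, 1.52 and 9.88 TPM in KO/+, against 2.68, 6.75 and 2.41 TPM in WT. KO/+ 4 and KO/+ 2 were among the highest libraries on this scale, and the genotypes overlapped. The difference between scales came from Lpo-203, a retained-intron transcript of 258 bases, whose effective length was only 11.04 to 14.0 bases. It was assigned 0, 1, 0 and 1.73 reads in KO/+ and 0, 1 and 0 in WT, which became 0, 3.28, 0 and 8.15 TPM in KO/+ and 0, 3.35 and 0 TPM in WT. With Lpo-203 left out, Lpo-201 and Lpo-202 summed to 1.61, 1.67, 1.52 and 1.73 TPM in KO/+ and 2.68, 3.40 and 2.41 TPM in WT, which did not overlap.

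**Figure D3:**
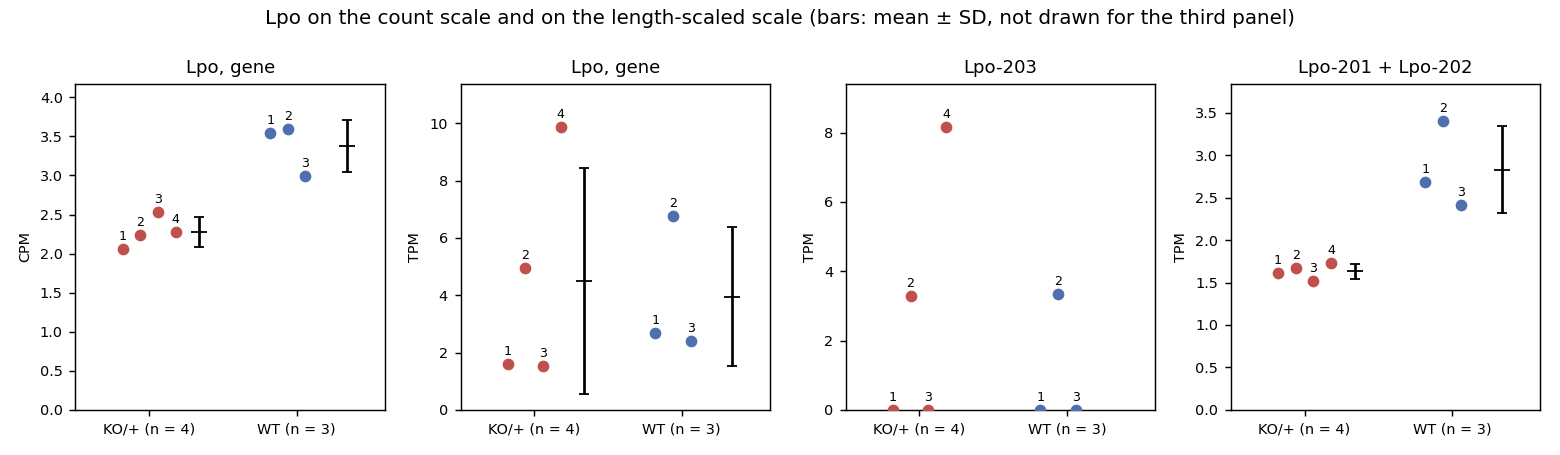
Lpo in each library as gene CPM, gene TPM, TPM of the short transcript Lpo-203 and summed TPM of the 2 coding transcripts (vertical axes, from 0), KO/+ on the left and WT on the right; bars are mean and SD and are not drawn for Lpo-203. The 3 libraries with high gene TPM are those in which Lpo-203 was given a read.

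Scaling by length also changed which of the other genes overlapped. In gene TPM and in gene FPKM, 3 of the 6 genes, Tmem267, Bmf and Best1, kept every KO/+ library below every WT library, and Ikzf5, Nbas and Lpo overlapped. For Ikzf5, KO/+ 3 was at 10.36 TPM and WT 2 at 9.16 TPM, and in KO/+ 3 the 278-base transcript Ikzf5-204 was given 2.32 TPM from 1 read. For Nbas, KO/+ 4 was at 17.00 TPM and WT 3 at 16.86 TPM, and the cause of that overlap was not tested. Best1 stayed apart, although the gene value of WT 3, 1.61 TPM, was made up mostly of 1.29 TPM from 1 read of Best1-202.

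Few other haem peroxidases were measured. Epx, the eosinophil peroxidase gene, was at 0.145, 0.232, 0.206 and 0.507 CPM in KO/+ and 0.368, 0.514 and 0.654 CPM in WT (log2 fold change -0.94, SE 0.43). Pxdn, which encodes peroxidasin of the extracellular matrix, was at 11.1, 12.1, 19.3 and 22.1 CPM in KO/+ and 21.8, 24.8 and 16.0 CPM in WT (log2 fold change -0.37). Both overlapped between genotypes, neither was called by edgeR, and Mpo was too low to test.

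Best1 was close to the limit of detection. It had 6, 3, 5 and 2 counts in KO/+, 16 in all, against 13, 12 and 17 counts in WT, 42 in all. These are 0.174, 0.0772, 0.147 and 0.0677 CPM in KO/+ and 0.341, 0.325 and 0.397 CPM in WT. The WT libraries were close to each other, and the KO/+ libraries were all lower. The lowest WT library was 1.87 times the highest KO/+ library, the widest ratio of the 6 genes, from few counts. The mean was 0.116 ± 0.0521 CPM in KO/+ (SD, n = 4) and 0.355 ± 0.0380 CPM in WT (SD, n = 3), or 32.8% of WT, with a fitted log2 fold change of -1.58 (SE 0.38, 95% interval -2.45 to -0.71).

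Best1 passed the filter on low counts, set at 0.276 CPM, only through WT: 3 WT libraries and 0 KO/+ libraries exceeded it. A gene admitted in that way had to differ between the genotypes, and the other 5 genes exceeded the filter in all 7 libraries. The exact binomial interval, before TMM scaling and for counting error only, was 0.0626 to 0.371 CPM in KO/+ 1 and 0.171 to 0.578 CPM in WT 2. The nearest libraries of the genotypes thus overlapped in counting error. Best1 lies at chr19:9985174-10001633 on the minus strand of GRCm38, with 3 annotated transcripts. Best1-201 was at 0.14, 0.06, 0.13 and 0.06 TPM in KO/+ and 0.30, 0.29 and 0.33 TPM in WT, and made up 96.7% of the drop. It has 3 splice junctions of its own, of which the first, at chr19:9997214-10001458, is shown with the downstream exon in capitals because it marks the transcript that carried the reads.
Best1-201 exon 1 to 2: cagaaaccctaacagGACCCAAGCCCACCT

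Few relatives of Ikzf5 and Best1 could be tested, and none was called. Of the other 4 Ikaros genes, 3 were tested, with log2 fold changes of -0.11 for Ikzf2, -0.09 for Ikzf1 and -0.01 for Ikzf4, and Ikzf3 was not tested. Of 4 other calcium-activated chloride channel genes, Ano1 alone was tested, with a log2 fold change of -0.13. Over all 6 lists of related genes, 37 of 44 genes were tested, with 18 negative and 19 positive log2 fold changes, a median of 0.01, and 0 called. In 0 of the 37 did every KO/+ library lie below every WT library, and in 3, Upf3a, Upf3b and Bbc3, every KO/+ library lay above. Over all genes tested these patterns were met by 1.8% and 2.16%.

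**Figure D4:**
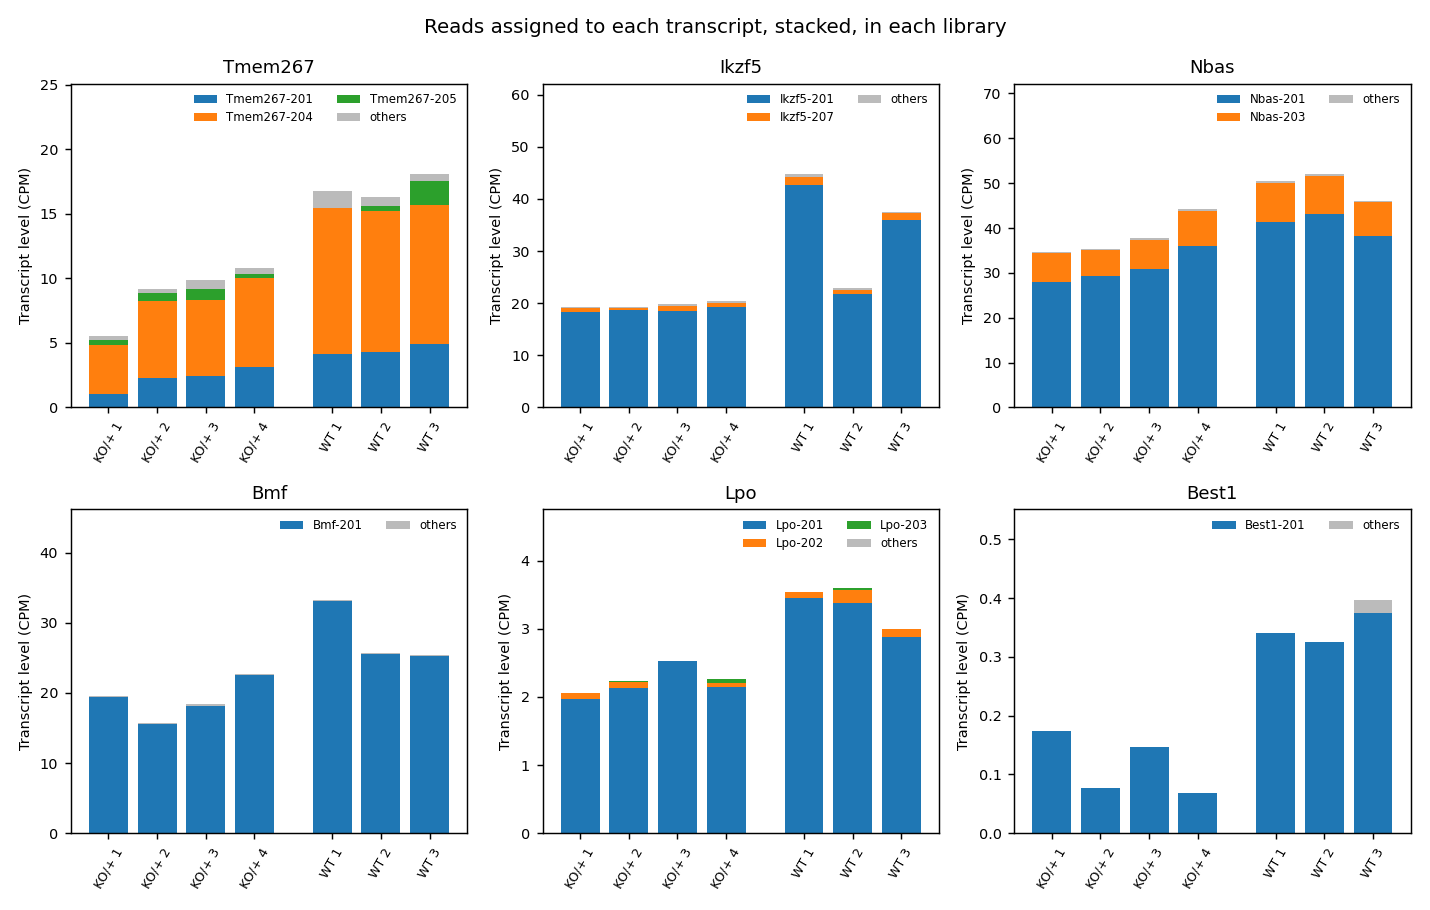
Reads assigned to each transcript, in CPM (vertical axes, from 0) and stacked, in each library (horizontal axes) for the 6 genes. KO/+ is on the left and WT on the right. Grey holds all transcripts other than those with a mean of at least 0.5 TPM, or the highest mean where none reached it. In each gene the same 1 or 2 transcripts make up most of the bar in every library of both genotypes, so the lower bars in KO/+ are lower in those transcripts.

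Across the 6 genes, 31 transcripts are annotated, and 5 of them had 0 reads in every library. Of the 12 transcripts with a mean of at least 0.5 TPM, or the highest mean where none reached it, 8 had every KO/+ library below every WT library in TPM. Over all 44375 transcripts tested, 2.39% met that pattern and 0 (0.0%) were called by edgeR at an adjusted p under 0.05, with 1201 (2.71%) at an unadjusted p under 0.05. The transcripts were chosen through their genes, so their number supports nothing further. In each of the 6 genes, the transcript with the most reads in KO/+ was also the one with the most reads in WT.

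Of the 12 nearest tested neighbours of the 6 genes, Ccl28 alone met the same pattern, which 1.8% of all genes tested met. This chemokine gene begins 12.8 kb beyond Tmem267 on the same strand and was at 0.868, 1.08, 1.12 and 1.42 CPM in KO/+, against 1.5, 1.79 and 2.17 CPM in WT. Its groups did not overlap, with a log2 fold change of -0.70 (SE 0.23, edgeR adjusted p = 0.957). On the other side, 3110070M22Rik overlaps the start of Tmem267 on the opposite strand and had a log2 fold change of -0.18 (SE 0.44), which was -0.67 without KO/+ 3 and 0.20 without WT 3.

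Neighbours of the remaining genes overlapped between genotypes and none was called. Around Nbas, Ddx1 had a log2 fold change of 0.09 and Gm35725 of -0.03. Around Bmf, Srp14 had one of 0.18, and the mitotic checkpoint gene Bub1b one of -0.54 (SE 0.38). Bub1b was at 15.2, 11.6, 23.9 and 28.1 CPM in KO/+ and 35.5, 36.1 and 14.2 CPM in WT, low in KO/+ 1, KO/+ 2 and WT 3 like the summed cell cycle markers, among which it is counted. Around Lpo, Tspoap1 had a log2 fold change of -0.04 and Mks1 of -0.22. Best1 sits tightly between Fth1, 76 bases away, and Rab3il1, 36 bases away, whose log2 fold changes were 0.15 and 0.04. Several of these values moved over 1.5 times with 1 library left out. Fth1 ran from 0.01 without WT 2 to 0.41 without WT 3, and Bub1b from -0.87 without WT 3 to -0.34 without WT 2. Mks1 ran from -0.30 without WT 3 to -0.11 without WT 2, and Srp14 from 0.11 without KO/+ 1 to 0.23 without KO/+ 4. The sign turned with 1 library left out for Gm35725 (0.07 without KO/+ 1 or KO/+ 4 and 0.44 without WT 3), Tspoap1 (0.04 without WT 1) and Rab3il1 (-0.01 without KO/+ 2 or WT 2).

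Within 1 Mb of each gene, the count of tested neighbours with a negative log2 fold change was 6 of 9 for Tmem267, 12 of 17 for Ikzf5 and 3 of 6 for Nbas. It was 21 of 31 for Bmf, 15 of 27 for Lpo and 16 of 32 for Best1. Over all genes tested, 51.2% of log2 fold changes were negative. Besides Ccl28, the pattern of the 6 genes was met by 5430419D17Rik and Cpxm2 around Ikzf5, Dnajc17 and Pak6 around Bmf, and Cyb561a3 around Best1. Cuedc1 around Lpo and Fads3 around Best1 met the opposite pattern. Over all genes tested, these patterns were met by 1.8% and 2.16%. No gene in these windows was called.

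The genes with the most similar pattern over the 7 libraries were found by Pearson correlation of log2 CPM, as a description of libraries that share the genotype difference. The 3 highest were kept from all tested genes of at least 1 mean CPM. With 7 libraries, such a search can give high r values by itself. Matching to genes chosen for non-overlap also favours matches that do not overlap. For Tmem267 the most similar genes were Qsox1 (r = 0.991), Abca1 (0.983) and Elovl5 (0.975), all lower in every KO/+ library. Their own log2 fold changes were smaller than that of Tmem267, at -0.27 for Qsox1, -0.31 for Abca1 and -0.18 for Elovl5. For Nbas they were Tead3 (0.991), Dalrd3 (0.983) and Gsg1l (0.977). For Bmf they were Ydjc (0.976), Cstf2 (0.958) and Dpagt1 (0.957). For Lpo they were Smpd2 (0.970), Ctnna1 (0.963) and Mindy4 (0.953), and for Best1, from few counts, Brap (0.918), Slc7a7 (0.916) and Wdr35 (0.912).

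The size of each fold change depended on which library was left out, while its direction was fixed by the choice of genes. The log2 fold change ran from -1.06 to -0.78 for Tmem267, from -1.07 to -0.63 for Ikzf5 and from -0.47 to -0.34 for Nbas. It ran from -0.66 to -0.43 for Bmf, from -0.65 to -0.53 for Lpo and from -1.83 to -1.41 for Best1. Groups chosen because they do not overlap keep their order when a library is dropped, so the unchanged sign is no sign of stability. With inferred sex as a covariate the values were -1.15 for Tmem267, -0.44 for Nbas, -0.51 for Bmf, -0.64 for Lpo and -1.41 for Best1.

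**Figure D5:**
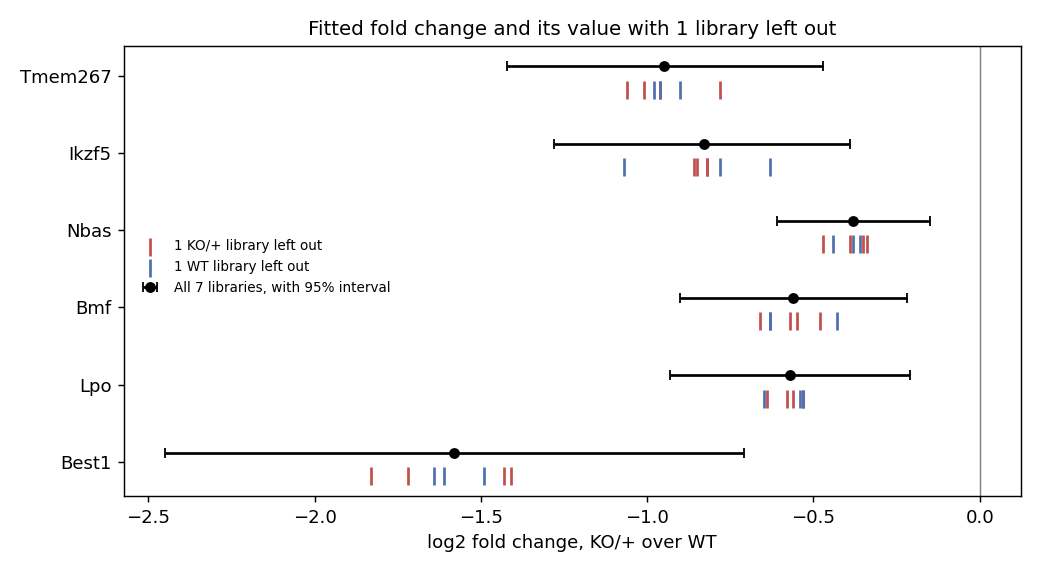
Fitted log2 fold change of KO/+ over WT (horizontal axis) for each of the 6 genes, with its 95% interval (black), and the value with 1 library left out (red ticks for a KO/+ library, blue ticks for a WT library). Ikzf5 and Bmf move most when a WT library is left out, and Tmem267 and Best1 when a KO/+ library is. The intervals take no account of how the genes were chosen and are no test.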

How the data were processed

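The tools in the submitters' processing notes are bcl2fastq, Trimmomatic 0.39, RSEM 1.3.1 and STAR 2.5.2a, and the builds are mm10 and GRCm38. Whether the quantification used strand is not given in the sources used here. Expected counts, deposited by the authors, are RSEM's estimates of reads for a gene or a transcript, per the file headers. The deposited TPM and FPKM are scaled by effective length and library size, and the deposited isoform percent is a transcript's share of its gene, per the file headers. The 6 tables of the whole series were not used.

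Expected counts were rounded, filtered (filterByExpr), scaled by TMM and fitted for all genes with edgeR 4.0.16 (glmQLFit and glmQLFTest, robust, no covariate, Benjamini-Hochberg adjustment, threshold 0.05). Fold changes are KO/+ over WT. The common biological coefficient of variation was 18.7% for genes and 34.2% for transcripts. The fit was tested on simulated counts drawn independently for each gene, without library differences such as those in the cell cycle markers. That test is no check of the fit on these libraries. Library pairs differed by more than sampling noise. P-values measure only the spread between these samples.

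The genes, lists and tests were chosen with earlier results of these data known. Named besides the 6 genes were L3mbtl3, their main transcripts, nearest tested neighbours and 3 most similar genes, up to 3 genes per related list by smallest p, and the genes at the edge of the rule; some list genes are not reported here. Alternatives used DESeq2 1.42.0, limma 3.58.1 (voom, and log2(TPM + 1) or log2(TPM + 0.1)), other scaling and filters, inferred sex, a replicate block and leaving out each library, in R 4.3.3 and Python 3.11.15. Positions and transcripts are from GENCODE M21, which held all 55450 gene IDs, and promoters from RefSeq (GRCm38.p6), where all 6 genes had an entry. Same-numbered libraries did not deviate together (r = 0.09, -0.17 and -0.02), so the numbers were not taken as pairs.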

Additional observations from a re-analysis of the deposited data

Results flagged for a closer look

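One value stood apart among 31 groups of 4 KO/+ libraries examined for an outlying library, and chance sets apart about 1 in 20 such groups. 3110070M22Rik, which overlaps the start of Tmem267 on the opposite strand, was at 1.5 CPM in KO/+ 3, against 0.608, 0.566 and 0.575 CPM in KO/+ 1, KO/+ 2 and KO/+ 4, a gap of 0.955 of the group's range. It was at 0.578, 0.839 and 1.33 CPM in WT. Tmem267 itself was not set apart in KO/+ 3.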

How the results depend on the processing

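The sign of the 6 fold changes was fixed by the choice of genes, so it is no measure of stability under most alternatives. Of 101 values under the alternatives, 98 moved by less than the spread between replicates. The other 3 were Lpo at -0.02 on log2(TPM + 1) and -0.08 on log2(TPM + 0.1), where reads of the short Lpo-203 weigh most, and Best1 at -0.58 on log2(TPM + 1). The number of the 6 genes lower in every KO/+ library was 3 in TPM and 3 in FPKM and 6 otherwise. The number of all genes with that pattern ran from 380 to 1584 with 1 library left out, against 302, by construction. Genes called ran from 0 to 1 with 1 library left out, namely Eif3j2 without KO/+ 4, Wdfy1 without WT 2 and Fam220a without WT 3. With the replicate number as a block, 1 gene was called, Eif3j2, and 1029 had an unadjusted p under 0.05, against 530, but the numbers do not pair the libraries. Transcripts called were 3 with no filter on low counts (of Adgrl3, Senp2 and Slc35c2), and ran from 0 to 2 with 1 library left out. None of the called genes or transcripts belongs to the 6 genes. The cause of these changes in calls was not tested. Depth limits Best1, with 2 to 6 counts per KO/+ library, and every estimate of a transcript with no sequence of its own.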

Other observations

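Of the 3 genes whose pattern was most like that of Ikzf5, 2 lie on other chromosomes. Wdfy1, on chromosome 1, was at 19.7, 17.3, 17.5 and 17.5 CPM in KO/+ and 44.3, 17.7 and 51.7 CPM in WT (r = 0.95 with Ikzf5 over 7 libraries). Pcdha4, a clustered protocadherin gene on chromosome 18, was at 6.25, 7.36, 5.83 and 7.17 CPM in KO/+ and 11.2, 7.07 and 11.8 CPM in WT (r = 0.937). In both, WT 2 lay within the range of KO/+ while WT 1 and WT 3 were higher, as in 2310057M21Rik (r = 0.973), Pstk and Acadsb beside Ikzf5.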
